A study of Mus musculus with 11 samples.

Results

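Sympathetic neurons of cluster 2 of the mouse stellate ganglion, 1 of the 4 numbered cell clusters in the authors' annotation, were divided into an Npy-high and an Npy-low population. The cells were chosen by their own Npy level, in counts of Npy per 10000 counts of the cell: at least 20 made a cell Npy-high and under 5 made it Npy-low. Cluster 2 held 335 of the 878 cells of the table. Of these, 131 were Npy-high, 126 were Npy-low and 78 lay between the levels and were left out. All cells came from male C57BL/6J mice aged 6 to 8 weeks, with no genetic change named. Each mouse had been injected with 2 retrograde tracers, CTB-488 for neurons of the forelimb and CTB-555 for those of the interscapular brown fat (iBAT), and its stellate ganglia were collected 3 days later. Every set pools the ganglia of 2 mice and holds both populations, and the 3 sets serve as replicates (n = 3). No cell of the table is tied here to a tracer, so both populations mix traced and untraced neurons.

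Neuropeptide Y is stored in large dense-core vesicles and released with noradrenaline by many postganglionic sympathetic neurons, above all those that constrict blood vessels. It is made as a prohormone, cut by convertases and amidated at its C terminus by the enzyme that Pam encodes. Sympathetic neurons differ in how much of it they hold, and peptide content is one of the classical ways of sorting them by target.

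The promoters of 3 genes that the results turn on are shown, from RefSeq on GRCm38.p6, each running from 250 bases before the gene start to 50 bases after it. Npy chose the cells, Scg2 stands for the vesicle genes that rose with it, and S100a13 lies head to head with S100a1, which rose too. Capitals mark TGACGTCA, the palindromic cyclic AMP response element.
Npy, chr6:49822460-49822759, plus strand: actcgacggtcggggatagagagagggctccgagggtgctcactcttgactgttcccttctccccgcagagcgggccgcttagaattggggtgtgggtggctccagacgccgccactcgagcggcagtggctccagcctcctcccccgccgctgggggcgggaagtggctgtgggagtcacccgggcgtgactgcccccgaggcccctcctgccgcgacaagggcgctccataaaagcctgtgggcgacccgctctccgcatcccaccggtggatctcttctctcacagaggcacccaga
Scg2, chr1:79439977-79440276, minus strand: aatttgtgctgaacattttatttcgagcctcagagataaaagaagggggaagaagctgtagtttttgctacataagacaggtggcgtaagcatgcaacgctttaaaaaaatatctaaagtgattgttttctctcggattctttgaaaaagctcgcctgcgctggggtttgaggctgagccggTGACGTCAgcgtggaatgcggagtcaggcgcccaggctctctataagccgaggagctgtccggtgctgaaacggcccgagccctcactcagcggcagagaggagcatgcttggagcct
S100a13, chr3:90514185-90514484, plus strand: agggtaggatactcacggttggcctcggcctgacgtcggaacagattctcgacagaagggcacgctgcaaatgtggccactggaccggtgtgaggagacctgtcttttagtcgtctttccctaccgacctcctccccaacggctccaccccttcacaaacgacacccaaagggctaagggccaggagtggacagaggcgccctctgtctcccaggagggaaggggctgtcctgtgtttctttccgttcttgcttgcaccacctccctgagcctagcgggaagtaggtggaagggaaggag
The S100a1 window, on the other strand, shares 204 bases with that of S100a13. The motif in the Scg2 window begins 68 bases before the RefSeq start, but inside the gene span printed with the Scg2 values, which is GENCODE's and starts further upstream. Searched on both strands, TGACGTCA was present in 1.79% of 32851 promoter windows of this length, and TGACTCA, an AP-1 motif that shares its first 4 bases, in 5.202%. Among the genes that passed the test described below, windows were found for 27 of 38 that rose and 23 of 35 that fell. TGACGTCA stood in 4 of those 27 (Dusp1, Ffar3, Plk2 and Scg2) and in 1 of those 23 (Mrpl16), and TGACTCA in 1 (Xaf1) and 0. The 32851 windows were not limited to genes that could be tested, so the shares have unlike backgrounds.

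By the choice of cells, Npy averaged 50.0, 60.9 and 62.6 counts per 10000 in Npy-high neurons of Sets 1, 2 and 3, and 3.50, 2.12 and 2.14 in Npy-low neurons. These values are a description. The spread within the Npy-high population was wide, from 20.4 to 357 with a median of 42.1. Cluster 1, where Npy averaged 183 ± 14.7 (SD, n = 3 sets), therefore lay above most Npy-high neurons of cluster 2. The limits cut through a continuous range: the cells nearest the upper limit held 20.4 inside and 19.1 outside, and those nearest the lower one 4.92 inside and 5.07 outside. In raw counts the median Npy-high neuron held 154 and the median Npy-low neuron 11.

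The low level was close to that of other clusters on these plates, where cDNA of all wells was pooled. Median Npy in Npy-low neurons was 3.39, 1.99 and 1.79 counts per 10000 in the 3 sets, and in cluster 4, which carries the cholinergic transcripts, 3.76, 2.70 and 1.94. Median counts per cell were 48204.5 and 35488.5. The 48 cells of cluster 3 with at least 15000 counts, at a median depth of 68058, had lower medians in each set, 2.93, 1.14 and 1.32. How much of the Npy in Npy-low neurons is background of the plates was not tested, and it is not read as expression of the gene. In the 53 cells of cluster 3 with under 15000 counts, Npy had a median of 30.4 per 10000 but of only 9 counts per cell, at a median depth of 2658 counts. A level of 20 alone thus did not mark a neuron where the depth was that low, and 8 of the 131 Npy-high neurons had under 15000 counts.

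**Figure D1:**
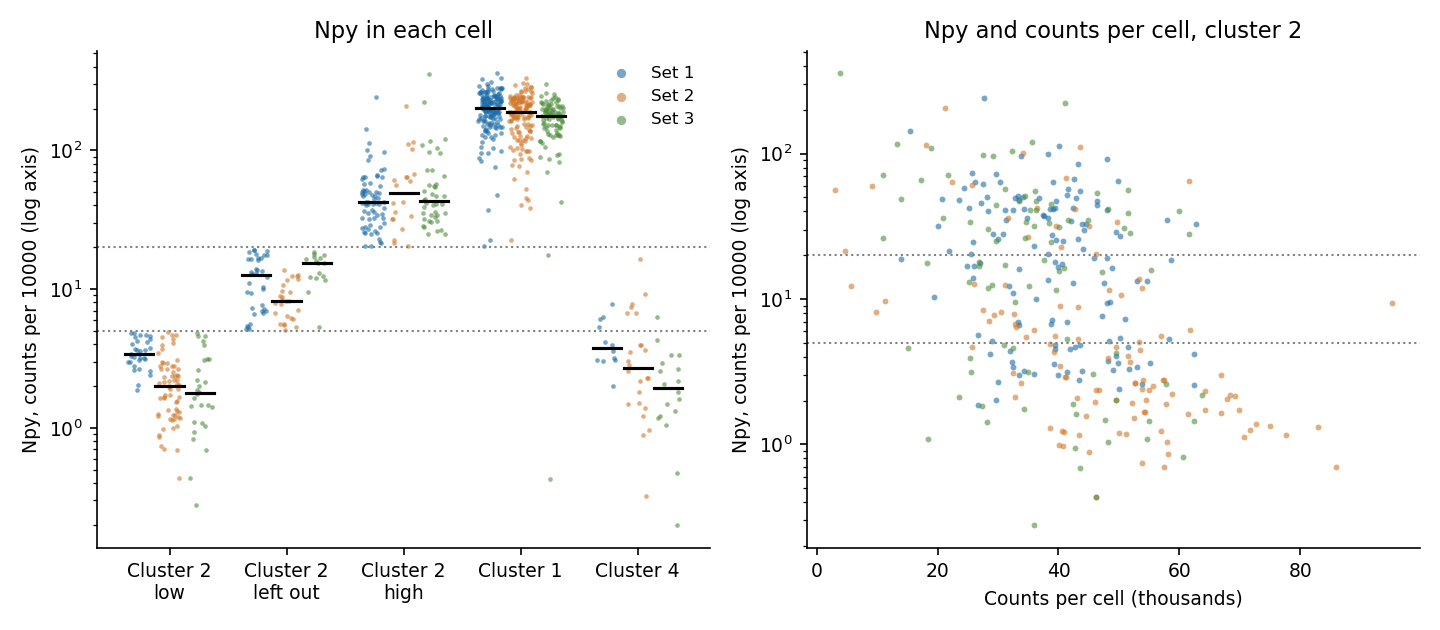
Left, Npy in counts per 10000 on a log axis, 1 point per cell, by population and set, with bars at the medians and dotted lines at the limits of 5 and 20. Right, Npy against the counts per cell for cluster 2: the Npy-low neurons, with a median of 48204.5 counts, sit further right than the Npy-high neurons, with 35915.

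The balance of both populations differed between the pools of mice. Npy-high neurons made up 50.4% of cluster 2 in Set 1 (95% Clopper-Pearson interval 41.7 to 59.0, counting error only), 17.9% in Set 2 (11.3 to 26.2) and 48.8% in Set 3 (37.9 to 59.9). Npy-low neurons made up 23.4%, 58.9% and 32.6%. Set 2 was thus rich in Npy-low and poor in Npy-high neurons. Single plates of Set 2 held 12.0% to 32.1% Npy-high cells, those of Set 1 47.1% to 56.5% and those of Set 3 26.9% to 65.6%. All 11 plates held both populations.

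Both populations expressed noradrenergic neuron markers at high levels. The 9 noradrenergic markers, among them Th, Dbh and Phox2a, summed to 124 to 143 counts per 10000 in the Npy-high means of the sets and to 131 to 147 in the Npy-low means, with no marker at 0. General neuron markers summed to 118 to 132 and 122 to 128. The 8 cholinergic markers summed to at most 1.30, with none at 0. Endothelial markers summed to 0.809 to 1.37 and 1.28 to 1.73, with Cldn5, Kdr, Cdh5 and Tek at 0 in both populations, and the 3 macrophage and lymphocyte markers in the table to at most 0.0380, with Lyz2 at 0. Fibroblast and mural markers summed to 0.312 to 0.638 in Npy-high and 0.104 to 0.258 in Npy-low neurons. Glial markers stood apart in 1 place: they summed to 63.0 in Npy-high neurons of Set 2 and to 12.3 to 15.5 in the other 5 means. There, 2 cells with over 100 glial counts per 10000, at a median depth of 3830 counts, held most of it, and without them the mean was 14.8.

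Depth moved with the populations. The whole table held 30518080 counts, with 2050165 to 3373157 per plate. Median counts per cell were 37612, 35700 and 34897.5 in Npy-high neurons of Sets 1, 2 and 3, and 42319.5, 53062.5 and 42785 in Npy-low neurons. The Npy-high population was shallower in each set, with a mean difference of -9986 ± 6583 counts (SD, n = 3; exact sign-flip permutation p = 0.25, two-sided, the smallest 3 sets allow). Median numbers of detected genes were 6594, 6942 and 6568 against 7007.5, 7815.5 and 6975.5. Values from 65 neurons of each population, paired within a set to within a factor of 1.1 in counts per cell, are therefore given beside the results. In single cells, fewer counts and less RNA in the cell cannot be told apart.

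Apart from Npy, the populations differed in a small group of genes that rose and a group of similar size that fell. The genes that rose furthest were Crip1 and S100a6, followed by the neighbours S100a1 and S100a13, the vesicle genes Scg2 and Pam, and Myl1. Those that fell furthest were Ddah1, Edn3, Gnas, Fxyd2, Actr3b, Ngfr and Eef1e1. By limma, with the set as a block and a Benjamini-Hochberg adjusted p under 0.05, 73 of 10421 genes passed, 0.701% of those tested. Of these, 38 rose (0.365%) and 35 fell (0.336%). All 73 moved the same way in 3 of 3 sets. A test blocked on the set favours such genes, and the share over all tested genes is not given here. Set means of both populations did not overlap for 30 of the 38 and 20 of the 35, against 743 of all tested genes (7.13%). A difference here is that of the mean log2(1 + counts per 10000), which understates changes of genes at low levels, and 20 of the 38 averaged under 1 count per 10000 in Npy-high neurons. The median difference of the genes that rose was 0.28 and of those that fell -0.32, against -0.01 over all tested genes. The count depended on the pools: 145 genes passed without Set 1, 86 without Set 2 and 24 without Set 3. In depth-paired neurons 17 genes passed, 11 of them among the 73. The direction was kept there by 36 genes that rose and 35 that fell, of 71 that could be tested.

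**Figure D2:**
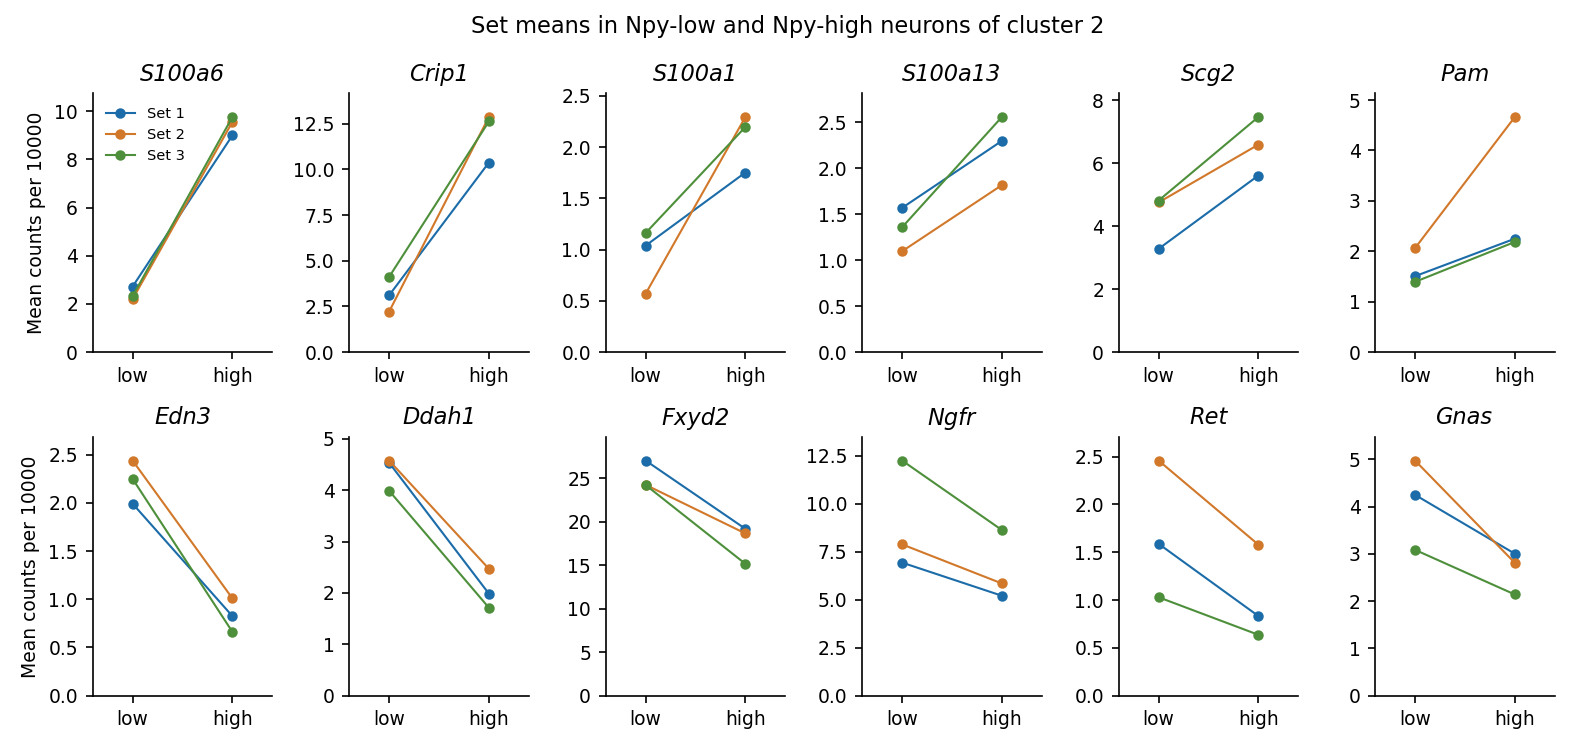
Mean level of 12 genes in counts per 10000, from 0, in Npy-low and Npy-high neurons of cluster 2, with 1 line per set. All lines of the upper row rise and all lines of the lower row fall; S100a6 goes from between 2.20 and 2.72 to between 9.00 and 9.76.

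S100a6 and Crip1 rose furthest, well ahead of every other gene that passed. S100a6 (chr3:90612882-90624181), which encodes the small EF-hand calcium sensor calcyclin, averaged 9.00, 9.56 and 9.76 counts per 10000 in Npy-high neurons of Sets 1, 2 and 3 and 2.72, 2.20 and 2.32 in Npy-low neurons. The sets agreed closely in each population, and the populations were far apart. The log2 difference was 1.55 (SE 0.0789, limma adjusted p 1.93e-15), and 1.71 in depth-paired neurons (adjusted p 1.80e-15). It had at least 1 count in 98.5% of Npy-high and 84.9% of Npy-low neurons, with medians per cell of 6.87 and 0.978. Crip1 (chr12:113146316-113153879), a cysteine-rich protein with a zinc-binding LIM domain, averaged 10.4, 12.9 and 12.6 against 3.11, 2.21 and 4.11. Again the populations did not overlap, with a log2 difference of 1.67 (SE 0.0865, limma adjusted p 1.86e-12). Crip1 lost its call under 4 of 20 alternatives, among them summed counts scaled to their total.

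S100a1 and S100a13, whose shared promoter is printed above, rose together. S100a1 (chr3:90511034-90514392) averaged 1.75, 2.29 and 2.20 in Npy-high and 1.04, 0.569 and 1.16 in Npy-low neurons. S100a13 (chr3:90514435-90524581) averaged 2.30, 1.82 and 2.56 against 1.57, 1.098 and 1.36. Neither gene's set means overlapped. Log2 differences were 0.64 (SE 0.0747, limma adjusted p 4.32e-06) and 0.50 (SE 0.0693, adjusted p 2.54e-05). In depth-paired neurons S100a13 passed (0.42, adjusted p 0.00503) and S100a1 did not (0.32, adjusted p 0.0759). S100a6 starts 98.4 kb from S100a13. Of the 8 tested genes named S100a these 3 passed. S100a10, at 21.6 in Npy-high and 21.7 in Npy-low neurons, had a log2 difference of -0.01 (adjusted p 0.982), and S100a11 of 0.02 (adjusted p 0.945). The neuronal sensor Ncald averaged 5.17, 5.23 and 4.66 against 3.57, 3.34 and 4.06, without overlap, and its log2 difference was 0.35 (SE 0.0756, limma adjusted p 0.0150). The call of Ncald was lost without Set 1, without Set 3 and in depth-paired neurons (0.25, adjusted p 0.258). In the whole list of calcium sensors and buffers, 4 of 19 tested members rose and 0 fell, with a median difference of 0.02 against -0.01 over all genes.

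The proteins of the dense-core vesicle that passed moved with Npy. Scg2 (chr1:79434669-79440120), secretogranin II, averaged 5.61, 6.59 and 7.47 counts per 10000 in Npy-high neurons and 3.28, 4.75 and 4.81 in Npy-low neurons. Every Npy-high mean exceeded every Npy-low mean, and the log2 difference was 0.59 (SE 0.0766, limma adjusted p 7.65e-06). In depth-paired neurons it was 0.67 (adjusted p 1.03e-07). Pam (chr1:97795114-98095646), the amidating enzyme, averaged 2.25, 4.66 and 2.19 against 1.51, 2.06 and 1.39, with Set 2 far above the others in the Npy-high population. Its log2 difference was 0.54 (SE 0.0805, limma adjusted p 0.000196), and 0.56 in depth-paired neurons (adjusted p 0.000128). These were 2 of 17 tested members of the list of granins and prohormone processing, none of which fell, and the median of the list was 0.00. With all 3 sets the other granins and convertases gave no call. Chgb, chromogranin B, averaged 2.46 ± 0.561 against 1.90 ± 0.176 (SD, n = 3 sets), with a log2 difference of 0.13 and a 95% interval from -0.01 to 0.28. Chga differed by 0.22 (-0.09 to 0.53), Vgf by -0.26 (-0.50 to -0.01), the convertase Pcsk1 by 0.00 (-0.11 to 0.12) and the carboxypeptidase Cpe by 0.04 (-0.11 to 0.19). Their adjusted p-values by limma were 0.455 to 0.994. Without Set 1, however, Chga passed as higher (0.36, adjusted p 0.00244) and Vgf as lower (-0.30, adjusted p 0.0110). Scaling by size factors made Vgf pass too, at -0.21 (adjusted p 0.0255, median of ratios).

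Among other peptides, those that passed went against Npy. Edn3 (chr2:174760619-174784042), endothelin 3, a ligand of the endothelin B receptor, averaged 0.826, 1.01 and 0.662 counts per 10000 in Npy-high neurons and 1.99, 2.44 and 2.25 in Npy-low neurons. All Npy-high means lay well below all Npy-low means. Edn3 had at least 1 count in 56.5% of Npy-high and 88.9% of Npy-low neurons, at median depths of 35915 and 48204.5. In cluster 1 it had one in 18.04% of the cells, at a median depth of 28396. The log2 difference was -0.79 (SE 0.0658, limma adjusted p 4.75e-10) and -0.45 in depth-paired neurons (adjusted p 0.00503). Agrp, agouti-related peptide, averaged 0.128, 0.330 and 0.0728 against 0.380, 0.457 and 0.531, without overlap (-0.22, SE 0.0445, limma adjusted p 0.00746). Its call was lost in depth-paired neurons (-0.20, adjusted p 0.231) and without Set 3. The span of Agrp overlaps Ripor1 and Ctcf on the other strand. The strand setting of the counting is not stated, so their reads cannot be told apart there. The neuropeptide list thus had 0 of 6 tested members that rose and 2 that fell, with a median of 0.03.

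Galanin gave no call in the main test, and its result depended on the sets and the Npy limits used. Gal, the peptide that accompanies Npy in cluster 1, averaged 13.5, 12.3 and 12.7 in Npy-high and 8.82, 4.45 and 12.3 in Npy-low neurons. The gap was widest in Set 2 and smaller in Set 1, and in Set 3 the means nearly met. On the tested log2 scale, Sets 1, 2 and 3 differed by 0.55, 1.08 and -0.20. Set 3 thus went the other way. The log2 difference of 0.48 had a 95% interval from -0.78 to 1.73 (limma adjusted p 0.729), and it was -0.03 in depth-paired neurons. Gal passed as higher without Set 1 (0.44, adjusted p 0.00647) and without Set 3 (0.82, adjusted p 0.000568). The call without Set 1 joins 2 sets that went opposite ways. With all 3 sets Gal passed under limits of 50 and 2 (1.11, limma adjusted p 4.52e-07). Both populations stayed far below the 53.8 of cluster 1. Fst, follistatin, averaged 0.153 in Npy-high and 0.0109 in Npy-low neurons against 2.58 in cluster 1, with counts in 14 of 131 and 8 of 126 cells (0.08, limma adjusted p 0.166). Vip (0.16, adjusted p 0.0882) and Cartpt (0.06, adjusted p 0.547) gave no call, but Vip passed without Set 1 (0.22, adjusted p 0.0147). Sst, with a mean of 0.00143 in Npy-high and 0.00746 in Npy-low neurons, was too low to be tested. The Npy receptor gene Npy1r averaged 0.226 ± 0.135 against 0.121 ± 0.0511 (SD, n = 3 sets; 0.10, limma adjusted p 0.318). Npy2r and Npy5r, at 0.0308 and 0.0117 in Npy-high neurons, were too low to be tested.

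Receptors for target-derived factors that passed were lower in Npy-high neurons. Ngfr (chr11:95568818-95587735), the p75 neurotrophin receptor, averaged 5.21, 5.85 and 8.64 counts per 10000 in Npy-high and 6.94, 7.89 and 12.3 in Npy-low neurons. The means overlapped between sets, because Set 3 was high in both, but each set fell (-0.47, SE 0.0739, limma adjusted p 0.000251). Ret (chr6:118151745-118197718), the signalling receptor of the GDNF family, averaged 0.833, 1.58 and 0.637 against 1.59, 2.46 and 1.03. It fell in each set by a log2 difference of -0.44 (SE 0.0666, limma adjusted p 0.000128). In depth-paired neurons neither passed (-0.19, adjusted p 0.291 for Ngfr and -0.28, adjusted p 0.184 for Ret). Ngfr also lost its call without Set 3. Gfra2, the neurturin co-receptor, averaged 0.815 ± 0.0972 against 1.07 ± 0.184 (SD, n = 3 sets; -0.21, limma adjusted p 0.220), and passed as lower without Set 1 (-0.28, adjusted p 0.0498). Ntrk3 differed by 0.11 (limma adjusted p 0.178) and passed without Set 2 (0.17, adjusted p 0.00187). The list of neurotrophin and GDNF family receptors had 0 of 8 tested members that rose and 2 that fell, with a median of -0.04. Lifr, a receptor for cytokines of the leukemia inhibitory factor family, averaged 0.566, 0.797 and 0.389 against 0.959, 1.14 and 0.578 (-0.26, limma adjusted p 0.0163). It lost its call without Set 1, without Set 3 and in depth-paired neurons (-0.18, adjusted p 0.528).

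Ddah1 fell and Arg1 rose, both of them enzymes. Ddah1 (chr3:145758675-145894277), which breaks down the methylarginines that inhibit nitric oxide synthase, averaged 1.99, 2.47 and 1.71 counts per 10000 in Npy-high and 4.54, 4.58 and 3.99 in Npy-low neurons. The populations were well apart, with a log2 difference of -0.82 (SE 0.0726, limma adjusted p 1.86e-09), and -0.79 in depth-paired neurons (adjusted p 4.74e-08). Arg1, arginase 1, averaged 0.282, 0.899 and 0.626 against 0.124, 0.193 and 0.126. It rose by 0.26 (SE 0.0445, limma adjusted p 0.000926), but lost its call without Set 3 and in depth-paired neurons (0.27, adjusted p 0.0787).

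Regulators of the sodium pump changed in opposite directions. Fxyd2 (chr9:45399669-45410278), the gamma subunit, averaged 19.2, 18.7 and 15.2 counts per 10000 in Npy-high and 27.0, 24.2 and 24.2 in Npy-low neurons. Every Npy-high mean was below every Npy-low mean, with a log2 difference of -0.52 (SE 0.0749, limma adjusted p 5.60e-05). Fxyd5, dysadherin, averaged 1.58, 1.91 and 1.07 against 0.865, 0.972 and 0.559, without overlap (0.41, SE 0.0648, limma adjusted p 0.000251). In depth-paired neurons neither passed: Fxyd2 stood at -0.37 (adjusted p 0.543) and Fxyd5 at 0.31 (adjusted p 0.0939). Without Set 3, Fxyd2 lost its call.

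Gnas and Adra2a, a G protein and a receptor that acts through G proteins, were lower in Npy-high neurons. Gnas (chr2:174284320-174346744), whose main product is the stimulatory alpha subunit, averaged 3.00, 2.81 and 2.14 counts per 10000 against 4.25, 4.98 and 3.09. Its populations did not overlap (-0.52, SE 0.0766, limma adjusted p 7.16e-05). The antisense gene Nespas overlaps it and the strand setting of the counting is not stated in any label, so reads of both cannot be told apart. Adra2a, the alpha-2A adrenergic autoreceptor, averaged 0.832, 0.716 and 0.539 against 1.30, 1.27 and 0.808 (-0.34, SE 0.0624, limma adjusted p 0.00225). Neither passed in depth-paired neurons (-0.28, adjusted p 0.0951 and -0.24, adjusted p 0.224). Of 17 tested receptors for noradrenaline, acetylcholine and peptides, 0 rose and 1 fell, with a median of -0.04. Of 18 tested genes of cyclic AMP signalling, none passed.

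Of the noradrenergic machinery, Th, Dbh, Ddc and Slc18a2 were close to level, while Slc6a2 leaned lower and Maob rose. Th, the rate-limiting enzyme, averaged 55.2, 46.0 and 78.7 counts per 10000 in Npy-high and 53.8, 54.4 and 83.4 in Npy-low neurons, with a log2 difference of -0.10 (95% interval -0.25 to 0.04). Dbh differed by -0.04 (-0.19 to 0.12), Ddc by -0.13 (-0.28 to 0.01) and the vesicular transporter Slc18a2 by -0.03 (-0.18 to 0.12). The noradrenaline transporter Slc6a2 averaged 20.9, 23.1 and 14.5 against 25.3, 27.5 and 16.9, lower in each set. Its difference of -0.26 (SE 0.0714) missed the threshold (limma adjusted p 0.0922), but passed in depth-paired neurons (-0.26, adjusted p 0.00369) and without Set 2 (-0.26, adjusted p 0.0101). Slc6a2 also passed under other alternatives, among them a filter at a mean of 0.5 counts per 10000 (limma adjusted p 0.0331). Maob, monoamine oxidase B, averaged 2.76, 3.63 and 3.75 against 2.21, 2.41 and 2.92 and rose by 0.35 (SE 0.0734, limma adjusted p 0.0112; 0.42, adjusted p 0.00675 in depth-paired neurons). It lost its call without Set 3. Of 10 tested genes of catecholamine synthesis none passed and 9 were below 0, with a median of -0.09. In depth-paired neurons 7 of the 10 were above 0, with a median of 0.01.

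The transcription factors of sympathetic identity gave no call among 16 tested. Phox2a (0.04), Hand2 (-0.10), Gata3 (-0.03) and Isl1 (-0.02) had limma adjusted p-values of 0.664 to 0.942. None of 5 tested Hox genes passed. Hoxc9, at 0.433 in cluster 1, averaged 0.0823 in Npy-high and 0.00392 in Npy-low neurons and was too low to be tested. Potassium channels (0 of 23), sodium, calcium, HCN and TRP channels (0 of 28), synaptic vesicle and release genes (0 of 27), axon guidance genes (0 of 17) and adhesion genes (0 of 20) gave no call either. In the cytoskeleton list 1 of 16 passed: Map2 fell by 0.26 on the log2 scale (limma adjusted p 0.0349), and the call was lost without Set 1 and without Set 3. Prph differed by -0.03 and Nefm by 0.15 (limma adjusted p 0.934 and 0.407).

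Some lists leaned 1 way with no member past the threshold. Of 65 nuclear subunits of oxidative phosphorylation, 59 were below 0 with a median of -0.07, although Cox6c stood at 15.6 ± 1.77 against 15.5 ± 1.51 counts per 10000 (SD, n = 3 sets). In depth-paired neurons 42 of the 65 were above 0 and the median was 0.01. Of 22 genes of cholesterol synthesis, 20 were below 0 with a median of -0.12, and 17 in depth-paired neurons with a median of -0.05. The 80 tested ribosomal protein genes split into 34 above and 46 below 0, with a median of -0.01. Immediate early genes were above 0 for 11 of 13, and 10 of 13 in depth-paired neurons. Only Dusp1, a phosphatase of MAP kinases, passed (0.28, limma adjusted p 0.0225), and not without Set 2, without Set 3 or in depth-paired neurons. Fos averaged 0.201, 1.34 and 0.435 against 0.291, 0.238 and 0.184, so its mean rested on Set 2 (0.12, limma adjusted p 0.437). Without Set 1, where it was lower, Fos passed (0.23, adjusted p 0.0358). In the axon injury list 1 of 13 rose, Ecel1, an endopeptidase induced in damaged neurons (0.27, limma adjusted p 0.00250), while Atf3, at 0.0171 and 0.0131, was too low to be tested. Among glial markers 1 of 7 tested rose, the myelin gene Mbp (0.16, limma adjusted p 0.0418), and 6 of 7 were above 0. In depth-paired neurons the lean was reversed, with 1 of the 7 above 0, 6 below and a median of -0.06. Without the 10% of cluster 2 cells richest in glial counts Mbp lost its call while 73 genes passed, 58 of them the same.

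**Figure D3:**
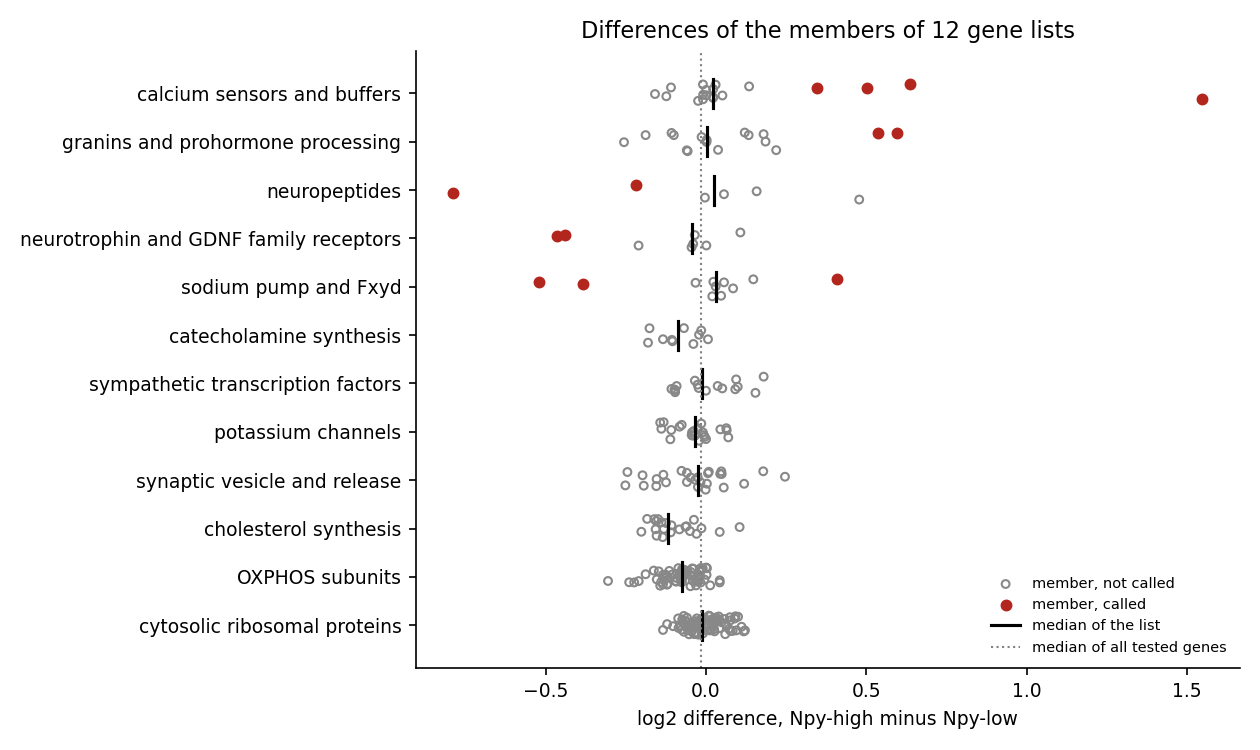
Log2 differences, Npy-high minus Npy-low, of the tested members of 12 gene lists. Filled points passed the test, open points did not, black bars are medians of the lists and the dotted line is the median of all tested genes, -0.01. Filled points lie in the first 5 lists, and S100a6 stands furthest right at 1.55.

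Of the genes with the smallest p-values, several belong to no list. Myl1, a myosin light chain, averaged 2.38, 3.22 and 2.79 counts per 10000 against 1.12, 2.27 and 1.48, without overlap (0.60, SE 0.0713, limma adjusted p 1.98e-06; 0.79, adjusted p 2.36e-07 in depth-paired neurons). Ccnd1, cyclin D1, averaged 0.329, 0.687 and 0.321 against 0.0734, 0.0432 and 0.0440 (0.28, limma adjusted p 2.54e-05), and the scaffold protein gene Ahnak 1.08, 1.62 and 0.992 against 0.614, 0.550 and 0.695 (0.40, limma adjusted p 0.000767). In depth-paired neurons neither passed, at 0.11 and 0.24. The long non-coding RNA gene C130073E24Rik rose by 0.18 (limma adjusted p 0.000919). On the lower side, Actr3b, a relative of the actin nucleator Arp3, averaged 0.763, 0.714 and 0.774 against 1.51, 1.37 and 1.53 (-0.50, SE 0.0625, limma adjusted p 5.58e-06), and passed in depth-paired neurons too (-0.38, adjusted p 0.0172). Eef1e1, part of the complex of tRNA synthetases, fell by 0.46 on the log2 scale, Thy1, a surface glycoprotein of neurons, by 0.39, Fabp3, a fatty acid binding protein, by 0.38 and the water channel Aqp1 by 0.22, with limma adjusted p-values of 0.00218, 0.00576, 0.00306 and 0.00225. None of these 4 passed in depth-paired neurons, where they stood at -0.16, -0.21, -0.11 and -0.15. Prima1, which anchors acetylcholinesterase, rose by 0.13 (limma adjusted p 0.0254), and Nbl1, an antagonist of bone morphogenetic proteins, fell by 0.33 (adjusted p 0.0247). They lost their calls under 15 and 13 of 20 alternatives.

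The 78 cells between the limits took no part in the test and lay between the populations for most genes that passed. Their mean log2 level fell between the Npy-low and Npy-high means for 36 of the 38 genes that rose and 32 of the 35 that fell. Genes that passed were picked for a gap between the populations, and a mean falls inside a wide gap more easily. The share over all tested genes is not given here, so these counts are a description. S100a6 averaged 2.42, 5.88 and 9.44 from low through left-out to high, Crip1 3.15, 7.30 and 12.0, and Edn3 2.23, 1.08 and 0.833. The left-out means of S100a6 were 7.56, 1.65 and 8.42 in Sets 1, 2 and 3. That of Set 2 lay below its Npy-low mean of 2.20. The left-out cells were also divided among themselves. Split at a level of 10 into 42 upper and 36 lower cells, they gave only 3 calls by limma among 10266 genes (0.0292%), with 512 at an unadjusted p under 0.05. All 3 were lower in the upper cells: the glial markers Apoe (-1.12) and Fabp7 (-0.81), and Sparc (-0.56), named here after their values were seen. None was among the 73. In Set 2, 2 left-out cells held at least 100 glial counts per 10000, at a median depth of 10529 counts. Both fell in the lower group, with Npy at 8.19 and 9.75 counts per 10000. How far the glial calls rest on these cells was not tested. Of 36 tested genes that had risen 27 were above 0 in this division, and of 34 that had fallen 28 were below 0. The median difference over all 10266 genes was -0.0059. Fxyd2 (-0.44, adjusted p 0.0553) and Edn3 (-0.67, adjusted p 0.162) came nearest, while S100a6 stood at 0.15 (adjusted p 0.931).

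**Figure D4:**
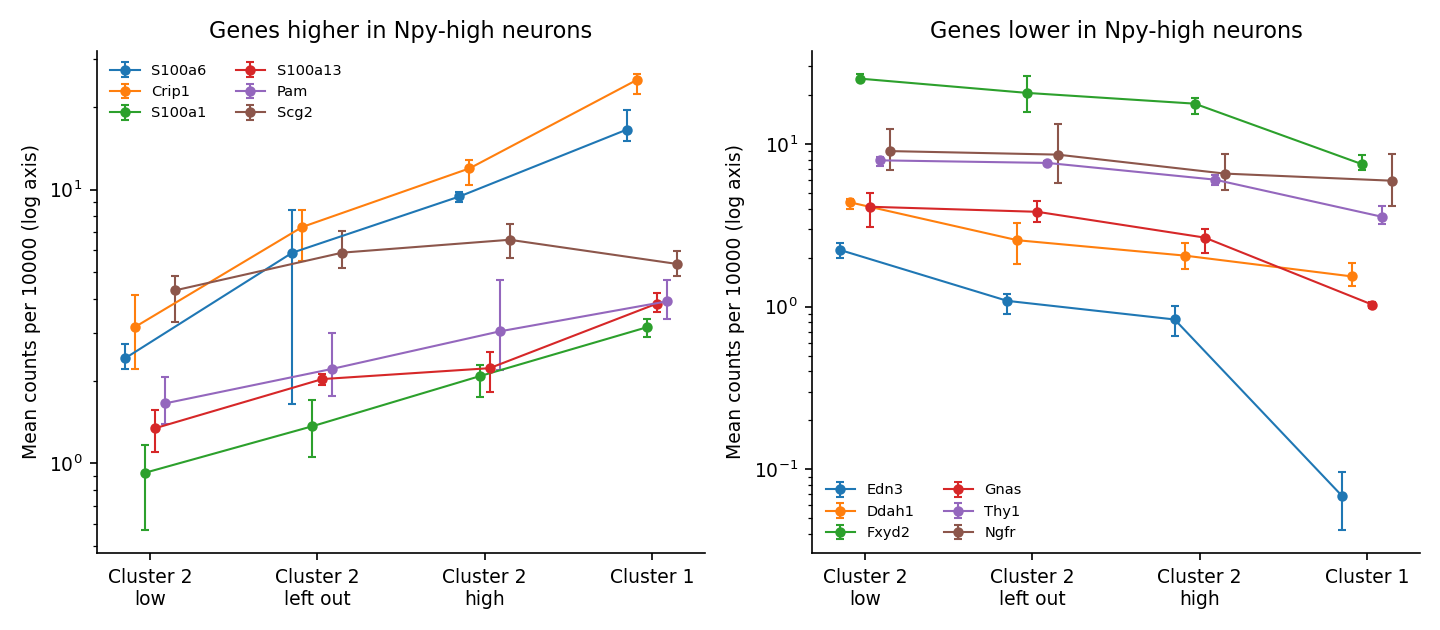
Mean counts per 10000 on a log axis in Npy-low, left-out and Npy-high neurons of cluster 2 and in cluster 1, for 6 genes that rose and 6 that fell. Points are means of 3 sets, bars run from the lowest to the highest set, and lines only join points of 1 gene. Edn3 goes from 2.23 to 0.833 within cluster 2 and to 0.0686 in cluster 1.

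Genes that separate cluster 1 from cluster 2 leaned towards cluster 1 in Npy-high neurons. Of the 38 genes that rose, 31 were higher in cluster 1 than in the left-out cells of cluster 2, and of the 35 that fell 32 were lower. Clusters were made from all genes of these cells, and the share over all tested genes is not given here, so these counts are a description. The 50 tested genes furthest above the left-out cells in cluster 1 included 14 that rose and 0 that fell here, 49 of 50 being above 0, with a median of 0.15. The 50 furthest below included 0 that rose and 11 that fell, 44 being below 0, with a median of -0.17. The median over all genes was -0.01. For some genes the shift was partial: S100a6 averaged 16.6 in cluster 1 against 9.44 in Npy-high neurons, Crip1 25.2 against 12.0, Fxyd2 7.50 against 17.7 and Epha5 7.36 against 3.24. Scg2 (5.35 against 6.56) and Myl1 (2.58 against 2.80) were instead higher in Npy-high neurons than in cluster 1. Epha5, an ephrin receptor, gave no call between the populations with all 3 sets (0.32, limma adjusted p 0.123) but passed without Set 1 (0.42, adjusted p 0.00281), and its Npy-high mean rested on Set 2, at 5.203 against 2.35 and 2.17. Of the genes that an earlier analysis of these same data gave as higher in cluster 1, 2 of 7 tested rose (Ncald and Maob). Of those it gave as lower, 5 of 9 fell (Ddah1, Ret, Adra2a, Fxyd2 and Edn3). Neither is independent evidence of direction. Leaving out the cells with any Fst count, a gene nearly limited to cluster 1, gave 66 calls, of which 58 were the same. Leaving out cells with as much Gal as the median of cluster 1 gave 56, all of them among the 73. That setting kept 129 of 131 Npy-high and all 126 Npy-low neurons, so it says little about neurons like cluster 1.

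Within cluster 1, whose cells are not among the members, the 128 cells highest and the 128 lowest in Npy, taken within the sets, were compared in the same way. Npy averaged 243 ± 20.2 and 117 ± 14.8 (SD, n = 3 sets) in them. By limma, 275 of 10383 genes passed (2.65%), 116 higher (1.12%) and 159 lower (1.53%) in the upper cells. Of the 37 genes that had risen in cluster 2 and could be tested, 15 rose and 2 fell in cluster 1. Of the 30 that had fallen, 12 fell and 1 rose. Those that rose in both included Crip1 (0.80 in cluster 1), S100a6 (0.54), Myl1 (0.94), Fxyd5 (0.73), Pam (0.31) and Scg2 (0.19). Scg2 rose in only 2 of the 3 sets of cluster 1, at a limma adjusted p of 0.0406. Genes that fell in both included Ddah1 (-0.61), Fxyd2 (-0.58), Thy1 (-0.97) and Actr3b (-0.33). Gal fell in cluster 1 by 0.42 on the log2 scale.

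The difference between the clusters was tested as an interaction, and 62 of 9917 genes passed (0.625%). Edn3 stood at -0.79 in cluster 2 against -0.02 in cluster 1, where its mean level was 0.0686 (interaction -0.77, limma adjusted p 2.34e-10). S100a1 stood at 0.64 against -0.06 (interaction 0.70, limma adjusted p 2.96e-05), and Crip1 at 1.67 against 0.80 (0.87, adjusted p 0.00407). Scg2 stood at 0.59 against 0.19 (0.41, adjusted p 0.0245) and Ret at -0.44 against -0.05 (-0.39, adjusted p 0.0178). Arg1 and Ecel1 rose in cluster 2 and fell in cluster 1. For S100a6 (1.01, adjusted p 0.0865), Pam (0.23, adjusted p 0.518), Ddah1 (-0.21, adjusted p 0.522) and Fxyd2 (0.06, adjusted p 0.917) no difference between the clusters passed. The groups of cluster 1 and the limits of cluster 2 span different ranges of Npy, so sizes are given side by side.

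**Figure D5:**
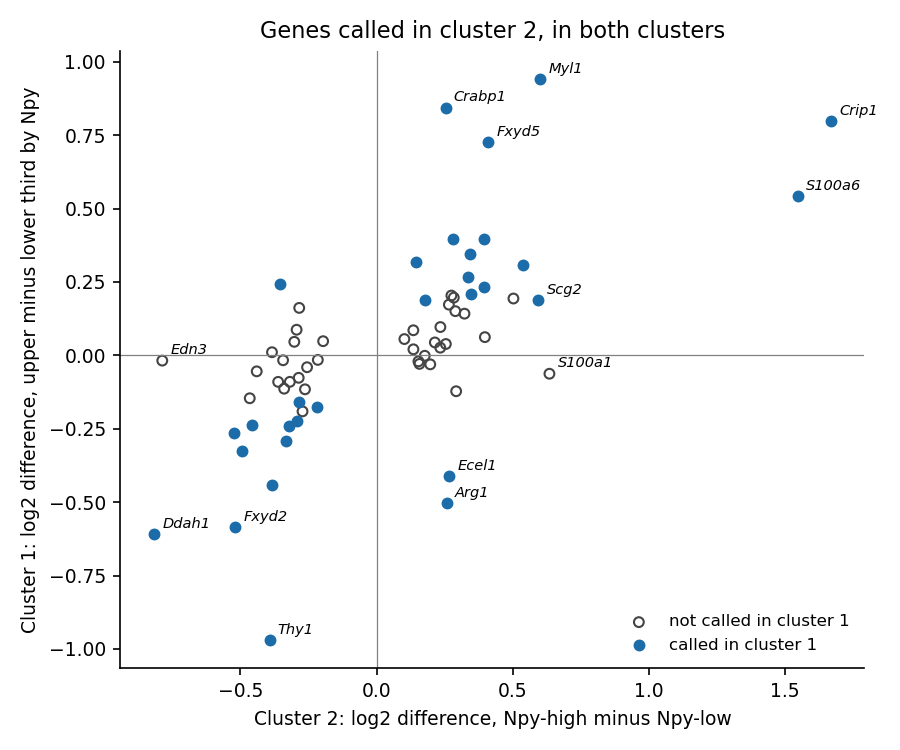
Log2 differences of the genes called in cluster 2, 67 of which could be tested in cluster 1: Npy-high minus Npy-low neurons of cluster 2 on the x axis and upper minus lower cells by Npy in cluster 1 on the y axis. Filled points passed the test in cluster 1. Crip1 and S100a6 lie furthest right, and Arg1 and Ecel1 are the filled points at the lower right.

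Over all cells of cluster 2, left-out cells included, the genes most like Npy were found by Spearman's rho within each set, over 137, 112 and 86 cells and 3373 genes with a mean of at least 0.5 counts per 10000. These values describe cells that share plates and differ in depth, and depth itself had a rho of -0.26, -0.56 and -0.30 with Npy. Crip1 came first, with 0.48, 0.55 and 0.55 in Sets 1, 2 and 3. It was followed by Pam (mean 0.41), S100a6 (0.38), S100a1 (0.37), Resp18, an endoplasmic reticulum protein of endocrine cells (0.36), Scg2 (0.35), Ahi1 (0.32), 6330403K07Rik (0.32), Nsg2 (0.30) and Ncald (0.28). Ddah1 was the least like Npy, at -0.49, -0.41 and -0.47, next to Edn3 (-0.42), Eef1e1, Ngfr and Fxyd2 (each -0.41). Gal ranked 41, with 0.18, 0.44 and -0.03. Inside the Npy-high population Crip1 still varied with Npy, with a rho of 0.29, 0.48 and 0.37, while S100a6 did so in Set 2 (0.59, 20 cells) more than in Sets 1 and 3 (0.03 and 0.09). S100a6 and Crip1 had a rho with each other of -0.07, 0.38 and 0.24 in Npy-high and of 0.00, 0.04 and 0.04 in Npy-low neurons.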

How the data were processed

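Single-cell RNA of stellate ganglia was measured on 11 plates in 3 sets of 2 pooled mice. The authors deposited natural log values, ln(1 + counts per 10000), as the values themselves show. Whole counts, to within 0.001, were recovered for 100% of non-zero values. Per the submitters' processing notes, STAR 2.5.3a, featureCounts 1.5.3, SAMtools 1.4.1, Seurat and the build GRCm38 were used. Per the labels' protocols, the cDNA of a plate's wells was pooled before PCR, and libraries cover 3' ends. Clusters are the authors', and their settings and any doublet removal are not given in the sources used here. No doublet caller was run. All 96 well barcodes recur on several plates, so a cell is identified by plate and barcode.

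For each set and population, log2(1 + counts per 10000) was averaged over cells, giving 6 profiles. limma 3.58.1 in R 4.3.3 tested 10421 genes with a mean of at least 0.05 counts per 10000 (trend, robust, set as a block, two-sided, Benjamini-Hochberg adjustment, threshold 0.05). Npy was left out. Both populations of a set come from the same mice, and their deviations from the population means correlated at 0.58 to 0.80. Between sets the values were -0.62 to 0.05. With 3 sets the deviations sum to 0 in each population, which pushes values between sets below 0 by construction. Sets are pools, so p-values refer to the spread between 3 pools, but they do not rest on it alone. limma draws each gene's variance towards a trend over all tested genes, so small p-values rest in part on other genes. Levels are mean counts per 10000, and intervals of differences are 95% intervals from limma. The test was checked on simulated data. Other steps used Python 3.11.15, scipy 1.17.1, pandas 2.3.3, numpy 2.4.6 and, for figures, matplotlib 3.10.9. Positions are from GENCODE M21.

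The members, lists and named genes were chosen with earlier results of these data known. Named genes were a set of preselected genes, the 12 smallest p-values in each direction, up to 4 called members of each list and the 10 genes most like Npy. A few others, named to explain small counts, were chosen after their values were seen. The settings with depth-paired neurons and without cells rich in Gal were chosen after seeing the data, as was the table of glia-rich cells. The other alternatives covered scaling, weights, thinning to 15000 counts, pseudocount, filters, the block, the limits of Npy, plates and each set. The sort log was not used. Some genes under these rules are not reported here.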

Additional observations from a re-analysis of the deposited data

Results flagged for a closer look

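The share of Npy-high cells in cluster 2 had an outlying plate in Set 2. It was 32.14% on 1 plate and 12.0% to 15.4% on the other 3, from 25 to 33 cluster 2 cells per plate, and chance alone flags about 1 in 20 groups of this kind. With differences taken within plates, limma called 26 genes between the populations, all of them among the 73.

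Arg1 and Ecel1 moved in opposite directions with Npy in the 2 noradrenergic clusters. Arg1 differed by 0.26 between Npy-high and Npy-low neurons of cluster 2 and by -0.50 between the upper and lower cells of cluster 1, and the log2 difference in cluster 2 minus that in cluster 1 was 0.76 (limma adjusted p 3.86e-09). Its mean level was 0.603 counts per 10000 in Npy-high neurons, 0.148 in Npy-low neurons and 2.15 in cluster 1. Ecel1 differed by 0.27 and -0.41, and its difference between the clusters was 0.68 (limma adjusted p 2.05e-07), at levels of 0.547, 0.218 and 1.25. Each gene rose in 3 of 3 sets in cluster 2, and both lost that call without Set 3 and in depth-paired neurons. How far depth takes part in the opposite directions was not tested.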

How the results depend on the processing

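The 73 genes called between the populations became 124 with median-of-ratios size factors, 121 with summed counts scaled to their total and 158 with voom weights (99 higher and 59 lower). Thinning to 15000 counts per cell gave 44, log2 of the mean level plus 0.1 gave 47 (32 higher and 15 lower), differences within plates 26 and depth-paired neurons 17. Limits of 50 and 2 gave 17, and equal upper and lower groups within each set gave 211 (84 higher and 127 lower). Without the set block 3 passed, and with no filter on the mean level 4. Leaving out a set gave 24 to 145. Of 20 alternatives, S100a6 and Edn3 kept their calls under each. Mbp changed sign with limits of 50 and 2, to -0.0035. Of the 73 genes, those tested kept their direction under every alternative but that one, where 70 did.

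The 3 calls among left-out cells became 1 with size factors, 1 after thinning and 0 by limma without the set block (189 at an unadjusted p under 0.05), and 5 to 11 without a set. The 275 calls in cluster 1 became 16 without the set block, 49 without the filter, 154 after thinning and 147 to 262 without a set. The difference in counts per cell stayed below 0 without each set. The cause of these changes was not tested. Depth limits genes under about 1 count per 10000, and 3 pools limit every p-value.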
